A study of Mus musculus with 6 samples.

Results

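The 48 genes described here drive or mark the cell cycle, out of 22564 features in the deposited table. They were chosen by name and role, with earlier results of these data known. Of them, 28 belong to G1 and the entry into S phase (the G1/S members) and 20 to G2 and mitosis (the G2/M members). Foreguts were microdissected from 6 mouse embryos of mixed strain, and each foregut gave 1 RNA-seq library. The controls were 3 embryos labelled Gli2+-, Gli3+-, heterozygous for both genes, with 19, 24 and 21 somites for controls 1, 2 and 3. The mutants were 3 embryos labelled Gli2--, Gli3--, homozygous for both, with 19, 22 and 21 somites for mutants 1, 2 and 3. Gli2 and Gli3 are the transcription factors that carry the Hedgehog signal into the nucleus. The controls thus also lacked a normal dose of both genes, and each library mixed gut endoderm with the mesoderm around it. The question was whether cells without Gli2 and Gli3 expressed less of the proliferation program or of the G1 cyclins.

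A dividing cell passes through G1, S, G2 and mitosis. In G1, extracellular signals raise the D cyclins, which bind the kinases CDK4 and CDK6 and inactivate the retinoblastoma protein. This frees E2F factors to switch on the E cyclins and the genes of DNA replication. Later in the cycle another set of genes, held off in G1 by the DREAM complex, rises for mitosis. Hedgehog signaling is known to raise Ccnd1, Ccnd2 and Mycn in cerebellar granule precursors and other tissues, and it thereby links growth signals to G1.

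Expression was given in TPM, the length-corrected share of each library scaled to a total of 1000000, which keeps no read depth. Features named by a database accession took 23.5% to 43.9% of the TPM, and this share was lowest in mutant 1. Principal component analysis put 45.3% of the variance on an axis that set both 19-somite libraries apart from the other 4. All 8 endoderm markers and all 8 splanchnic mesoderm markers were above 0 in every library. Each library had 18646 to 19282 of the 22564 features above 0, so this does not test the tissue label. Genes that respond to the pathway were lower in mutants. Gli1, a transcription factor induced by Hedgehog, stood at 37.8, 21.6 and 28.6 TPM in controls and at 4.49, 2.30 and 1.44 TPM in mutants. Its log2 difference was -3.07 ± 0.36 (SE, limma adjusted p = 0.0722). The receptor Ptch1 stood at 691 ± 169 and 289 ± 80.3 TPM (mean ± SD, n = 3 each). Hhip, a Hedgehog-binding protein, stood at 7.35 to 13.0 TPM in controls and at 1.35 to 1.96 TPM in mutants.

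The genes of DNA replication and mitosis had small log2 fold changes, from -0.11 to 0.34. The members with the largest log2 fold changes, Myc, Ccnd2, Cdk6 and Ccnd3, were regulators of G1. None of them met the limits set for a call, and most G1/S members overlapped between genotypes. Of the 48 genes, 47 had a mean of at least 1 TPM and were tested on log2(TPM + 1) with limma across all 14606 genes above that level. A call required a limma adjusted p no larger than 0.1 together with a 2-fold difference, and 0 members met it. By this rule 0.0274% of all genes tested were lower and 0.0137% were higher in mutants. Of 7 Hedgehog response genes, Ptch1 and Hhip among them, it called only Gli1 (14.3%). In all 7, every mutant lay below every control (100%, against 1.68% of all genes). An unadjusted p of at most 0.05 was reached by 3 members, Ccnd2 lower and Ccnd3 and Myc higher, or 2.13% and 4.26% of the 47 against 1.01% and 3.07% of all genes. The groups did not overlap for 5 members, 2 of them lower (Ccnd1 and Ccnd2) and 3 higher (Myc, Mcm3 and Cdc25c). These are 4.26% and 6.38% of the members, beside 1.68% and 6.68% of all genes. In either direction they are 10.6% of the members, a share near the 8.36% of all genes.

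The median log2 fold change was 0.04 over the 27 tested G1/S members and 0.11 over the 20 G2/M members. That of all genes tested was 0.11, so relative to it the medians were -0.07 and -0.00041. Spread differed more than the medians: G1/S members ran from -0.84 to 0.98 and G2/M members from -0.11 to 0.34. For 19 of the 20 G2/M members the 95% limma interval excluded a 2-fold change in either direction, against 59.3% of all genes. The same held for 20 of the 27 G1/S members. The members whose interval reached a 2-fold change in either direction were Ccnd2, Ccnd3, Mycn, Myc, E2f1, Cdk6 and Cdkn1a in G1/S and Birc5 in G2/M. A 2-fold fall alone was excluded for 41 of the 47, Ccnd3 and Myc among them, against 83.8% of all genes. In a bulk sample fewer cells of a type and less RNA per cell cannot be told apart.

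**Figure D1:**
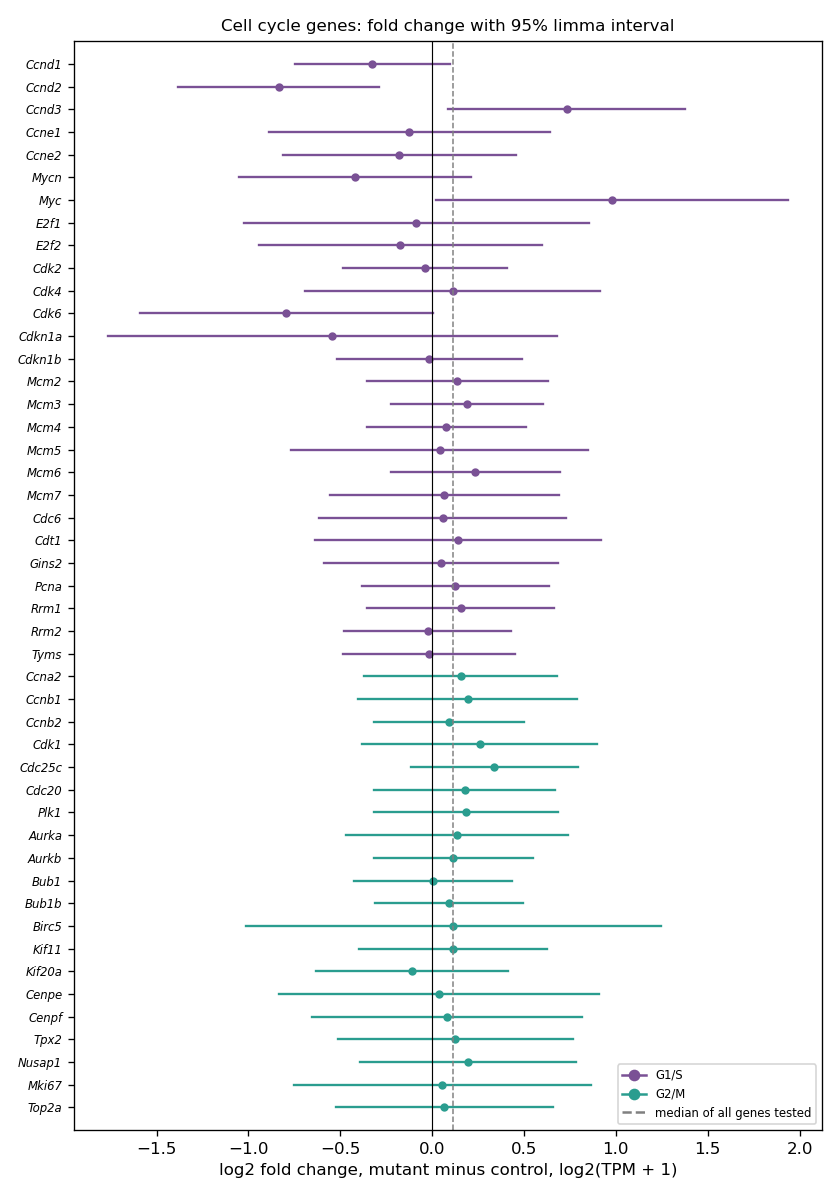
Log2 fold change (mutant minus control, on log2(TPM + 1)) of the 47 tested members, with points for the estimate and lines for the 95% limma interval, G1/S members above and G2/M members below. The dashed line marks the median of all genes tested, 0.11, and the intervals of Ccnd2, Ccnd3 and Myc are the only ones that do not reach 0.

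The D cyclins parted in direction. Ccnd2 (chromosome 6, 127125162 to 127152193, mm10) was the most abundant of them in controls, at 234, 263 and 191 TPM in controls 1, 2 and 3. It stood at 103, 159 and 125 TPM in mutants 1, 2 and 3. Every mutant lay below every control, by 1.78-fold in the mean. The log2 fold change was -0.84 ± 0.24 (SE, 95% interval -1.38 to -0.29, limma adjusted p = 0.846). That value is in the lowest 1.44% of all genes tested, and each mutant was below the control of the same number, by 1.18, 0.72 and 0.61 on the log2 scale. In limma its unadjusted p was 0.00797, and it kept an unadjusted p of at most 0.05 in all 17 alternatives.

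Ccnd1 (chromosome 7, 144929931 to 144939925) showed the same order with a smaller distance. It stood at 142, 133 and 137 TPM in controls and at 99.6, 107 and 123 TPM in mutants. The groups did not overlap, and the controls were close to each other. The means differed by 1.25-fold, a log2 fold change of -0.32 ± 0.18 (SE, 95% interval -0.75 to 0.10, limma adjusted p = 0.999).

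Ccnd3 (chromosome 17, 47505051 to 47599691), the least abundant D cyclin, went the other way. It stood at 45.7, 35.6 and 35.9 TPM in controls and at 86.4, 72.3 and 44.1 TPM in mutants. Mutants 1 and 2 were above all controls, whereas mutant 3 was just below control 1 and above the other two. The means differed by 1.73-fold, with a log2 fold change of 0.73 ± 0.28 (SE, 95% interval 0.09 to 1.38, limma adjusted p = 0.999).

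As TPM is corrected for length, the 3 transcripts can be added. The D cyclin sum was 422, 432 and 364 TPM in controls and 289, 339 and 293 TPM in mutants, so no mutant reached the lowest control. Ccnd2 made up 56.3 ± 4.25% of the sum in controls and 41.8 ± 5.77% in mutants (SD, n = 3). Ccnd3 made up 9.64 ± 1.31% in controls and 22.1 ± 7.46% in mutants, while the share of Ccnd1 was 34.1 ± 3.41% and 36.1 ± 5.44%. In mutant 1 the 3 genes stood nearly level, at 103, 99.6 and 86.4 TPM for Ccnd2, Ccnd1 and Ccnd3, and in control 1 Ccnd2 was at 234 and Ccnd3 at 45.7 TPM. These sums and shares are descriptions and were not tested.

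Exons of all 3 overlap annotated genes on the opposite strand, and the libraries did not mark strand. Of the overlapping genes, Oraov1 at the Ccnd1 locus stood at 5.23 to 14.4 TPM over the 6 libraries, the noncoding 9330179D12Rik at Ccnd2 at 0.78 to 1.91 TPM and Bysl at Ccnd3 at 15.2 to 22.7 TPM. Their log2 fold changes were 0.38 for Oraov1, opposite in sign to Ccnd1, -0.43 for 9330179D12Rik and 0.049 for Bysl. Ccnd3 also has an annotated pseudogene, with which reads could be shared.

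**Figure D2:**
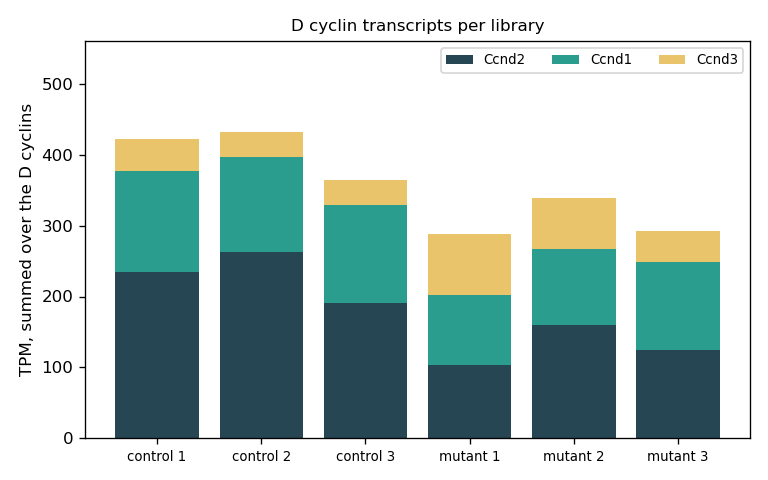
TPM of the 3 D cyclins stacked for each library, with Ccnd2 at the bottom, Ccnd1 in the middle and Ccnd3 on top. The stacks reach 364 to 432 TPM in controls and 289 to 339 TPM in mutants, and the Ccnd3 part is tallest in mutants 1 and 2.

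Of the D cyclin partners, Cdk4 was the more abundant, at 380, 241 and 256 TPM in controls and 492, 287 and 209 TPM in mutants, so its groups overlapped. Its log2 fold change was 0.11 ± 0.35 (SE). Cdk6 (chromosome 5, 3341485 to 3531008) stood at 32.9, 72.9 and 67.6 TPM in controls and at 22.8, 36.2 and 36.3 TPM in mutants. Both 19-somite libraries had the least Cdk6 of their genotype, and mutants 2 and 3 were above control 1. Each mutant was below the control of its own number, by 0.51, 0.99 and 0.88 on the log2 scale. Without regard to numbers the log2 fold change was -0.79 ± 0.35 (SE, 95% interval -1.59 to 0.0051, limma adjusted p = 0.999). Cdk6 is described in full because of these values, having been picked out after they were seen. Cdk2, the partner of the E cyclins, stood at 15.1 to 17.4 TPM over all 6 libraries, the narrowest range of the G1 kinases.

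Over all members, 4 were lower in each mutant than in the same-numbered control, namely Ccnd1, Ccnd2, Cdk6 and Mycn. That is 8.51% of the 47, beside 6.37% of all genes tested. Higher in 3 of 3 were 16 members, 34% beside 25.7% of all genes. With the library number as a block in the limma fit, an unadjusted p of at most 0.05 was reached by 4 members that were lower, the same 4 genes, and by 2 that were higher, Ccnd3 and Myc. Over all genes 1.86% were lower and 7.94% higher by that measure. The block called 0 members, beside 0.11% of all genes lower and 0.0959% higher, and the limma adjusted p of Ccnd2 was then 0.157.

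The CDK inhibitors restrain these kinases. Cdkn1a, which encodes p21, stood at 39.9, 32.9 and 9.22 TPM in controls and at 21.5, 10.3 and 17.0 TPM in mutants. Control 3 was the lowest of all libraries, so the groups overlapped widely, and the interval was broad (log2 fold change -0.54, 95% interval -1.76 to 0.68). Cdkn1b, which encodes p27, stood at 12.5, 13.3 and 16.2 TPM and at 14.1, 11.9 and 15.5 TPM, with an interval from -0.52 to 0.49. Cdkn2c, which encodes p18, was near absent, at 0.10, 0.39 and 0 TPM in controls and 0.11, 0.13 and 0.12 TPM in mutants, and was not tested.

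The E cyclins, which act with Cdk2 at the start of S phase, overlapped between genotypes. Ccne1 stood at 38.7, 17.0 and 31.4 TPM in controls and at 31.6, 19.8 and 25.3 TPM in mutants, with a log2 fold change of -0.13 ± 0.33 (SE). Ccne2 stood at 17.5, 20.6 and 19.2 TPM in controls and at 13.3, 14.0 and 24.99 TPM in mutants, with a log2 fold change of -0.18 ± 0.27 (SE). Mutant 3 was the highest library for Ccne2 and the other mutants were the lowest. Both intervals excluded a 2-fold fall, with lower ends at -0.89 and -0.81.

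The Myc family, transcription factors that promote growth and G1 progression, also parted in direction. Mycn (chromosome 12, 12936093 to 12941914) stood at 82.4, 46.2 and 60.6 TPM in controls and at 51.2, 35.4 and 52.3 TPM in mutants. The groups overlapped, and each mutant was below the control of its number (log2 fold change -0.42 ± 0.27, SE, 95% interval -1.05 to 0.21, limma adjusted p = 0.999). Myc (chromosome 15, 61985391 to 61990374) stood at 19.8, 57.8 and 42.8 TPM in controls and at 59.0, 108 and 61.7 TPM in mutants. Every mutant was above every control, by a margin of about 1 TPM between mutant 1 and control 2. The means differed by 1.90-fold, with a log2 fold change of 0.98 ± 0.41 (SE, 95% interval 0.02 to 1.94, limma adjusted p = 0.999). The ratio of Mycn to Myc was 4.17, 0.80 and 1.41 for controls 1, 2 and 3. It was 0.87, 0.33 and 0.85 for mutants 1, 2 and 3, so control 2 lay within the mutant range.

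**Figure D3:**
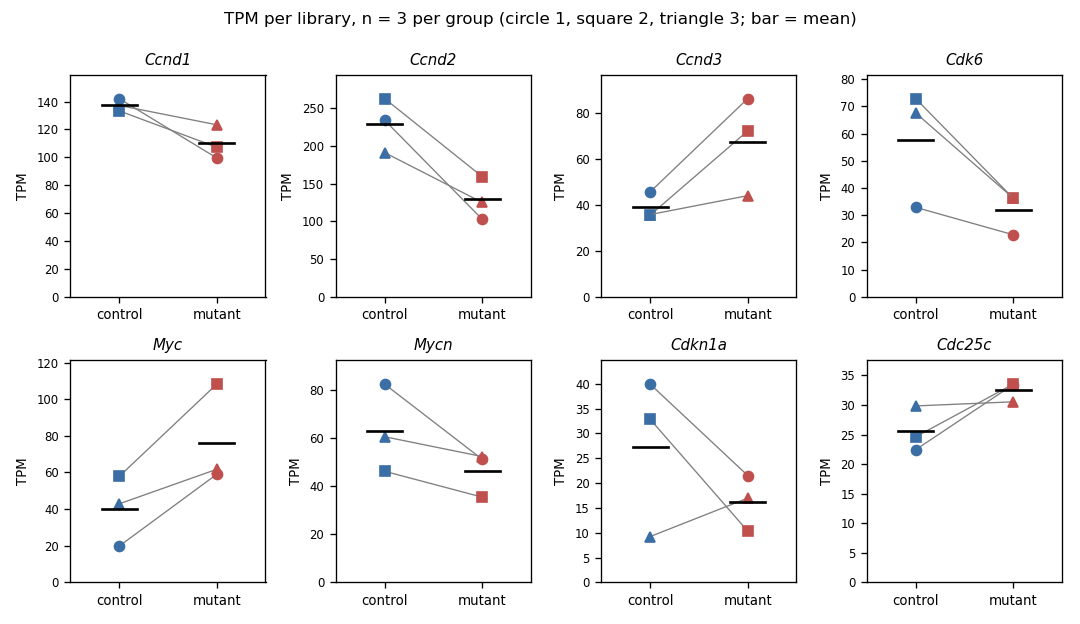
TPM per library of 8 members, with controls on the left and mutants on the right of each panel, symbols for the library number, grey lines between libraries of the same number and black bars for the group means (n = 3). Lines for Ccnd1, Ccnd2, Cdk6 and Mycn all slope down and those for Ccnd3, Myc and Cdc25c all slope up, whereas those for Cdkn1a cross.

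E2f1 and E2f2, the activating E2F factors among the members, stood at 11.9 to 30.8 TPM and 4.05 to 9.09 TPM over the 6 libraries, with log2 fold changes of -0.09 and -0.17. Their groups overlapped.

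The genes that E2F factors switch on for replication were close to the median of all genes. The 9 genes of origin licensing and the replicative helicase (Mcm2 to Mcm7, Cdc6, Cdt1 and Gins2) had log2 fold changes from 0.04 to 0.23, all above 0, and the smallest unadjusted p was 0.271. Rescaling turned some of these signs, so no direction is given for the class. Mcm3, a helicase subunit, stood at 90.1, 80.9 and 91.1 TPM in controls and at 109, 94.4 and 96.1 TPM in mutants, without overlap (log2 fold change 0.19 ± 0.18, SE, limma adjusted p = 0.999). Pcna, the sliding clamp of DNA polymerase, was the most abundant member, at 685, 578 and 592 TPM in controls and 700, 588 and 742 TPM in mutants. Control 1 lay between the mutants. Rrm1, Rrm2 and Tyms, which supply deoxynucleotides, had log2 fold changes from -0.02 to 0.16. All 13 intervals of these replication genes excluded a 2-fold fall, the lowest end being -0.77 for Mcm5.

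The sequence before the start sites bore on how the members divide, since the phases were assigned by function and not by sequence. RefSeq windows (GRCm38.p6, 250 bases before to 50 after the start) were matched for 37 members, 22 of G1/S and 15 of G2/M. Ccnd1, Ccnd2, Ccne2, Myc, Mcm4, Gins2, Ccna2, Cdc25c, Aurkb, Kif20a and Tpx2 were not matched. The E2F site was searched as TTTCCCGC, TTTGGCGC, TTTCGCGC or TTTGCCGC, and the CHR, the element bound by the DREAM complex, as TTTGAA or TTCGAA, on both strands, and a gene counted if any of its windows held a match. An E2F match was held by 9 of 22 G1/S members (40.9%) and 1 of 15 G2/M members (6.67%), against 2.6% of 27025 genes. A CHR match was held by 11 of 15 G2/M members (73.3%) and 4 of 22 G1/S members (18.2%), against 21.7% of all genes. The NF-Y box, CCAAT, was in 13 of 15 G2/M members, 13 of 22 G1/S members and 41.1% of all genes. The E-box CACGTG, a sequence bound by Myc factors, was in 4 G1/S members (Cdk4, Cdk6, Cdkn2c and Tyms), 0 G2/M members and 8.09% of all genes. The GLI motif GACCACCCA was found in none of the 37 windows and in 0.289% of all genes, which says only that these letters were not in these windows. Matches are descriptions of sequence and not evidence of binding.

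Stretches of 30 bases around matches are given as examples, the first 4 for the E2F site and the last 5 for the CHR. In each, 1 match is in capitals. They were picked because they hold a match, so they do not show what a phase has in common. Mcm5, Mcm6, Ccnb2 and Mki67 hold more than 1 match.
Mcm5 (chr8:75109345-75109374, plus strand): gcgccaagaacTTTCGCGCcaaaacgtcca
Mcm6 (chr1:128359797-128359826, minus strand): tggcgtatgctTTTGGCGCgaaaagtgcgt
Cdc6 (chr11:98908002-98908031, plus strand): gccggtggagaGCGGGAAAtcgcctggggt
Cdt1 (chr8:122568035-122568064, plus strand): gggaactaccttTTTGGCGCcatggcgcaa
Ccnb2 (chr9:70421533-70421562, minus strand): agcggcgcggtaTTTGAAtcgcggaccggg
Cdc20 (chr4:118437344-118437373, minus strand): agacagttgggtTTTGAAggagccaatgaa
Plk1 (chr7:122159453-122159482, plus strand): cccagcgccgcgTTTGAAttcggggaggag
Cenpf (chr1:189688067-189688096, minus strand): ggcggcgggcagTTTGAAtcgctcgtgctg
Mki67 (chr7:135716460-135716489, minus strand): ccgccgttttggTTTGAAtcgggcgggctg
All are written along the strand of the gene, and in Cdc6 the match is on the opposite strand, so that its reverse complement is TTTCCCGC.

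**Figure D4:**
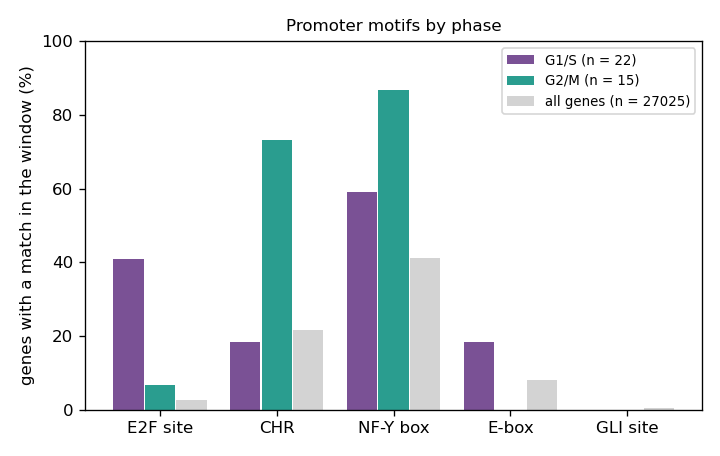
Share of genes (in percent) with at least 1 match to each motif in the window of 300 bases, for the 22 matched G1/S members, the 15 matched G2/M members and all 27025 genes. The E2F bar is tallest for G1/S (40.9%) and the CHR and NF-Y bars are tallest for G2/M (73.3% and 86.7%), and no member had the GLI site.

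The mitotic genes had small log2 fold changes, and none was called. Of the 20 G2/M members, 19 had a log2 fold change above 0 and Kif20a, a motor of cytokinesis, one of -0.11. This count moves with the scaling, as the median of all genes was itself 0.11. The smallest unadjusted p among them was 0.123. The mitotic cyclins Ccna2, Ccnb1 and Ccnb2, their kinase Cdk1, its activator Cdc25c and Cdc20, which activates the anaphase-promoting complex, had log2 fold changes from 0.09 to 0.34. Cdc25c, the phosphatase that activates Cdk1, was the least abundant G2/M member, at 22.4, 24.6 and 29.8 TPM in controls and 33.5, 33.5 and 30.5 TPM in mutants. Its groups did not overlap, with mutant 3 less than 1 TPM above control 3 (log2 fold change 0.34 ± 0.20, SE, limma adjusted p = 0.999).

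The kinases and checkpoint proteins of mitosis (Plk1, Aurka, Aurkb, Bub1, Bub1b and Birc5) had log2 fold changes from 0.0030 to 0.19, and the motors, spindle and kinetochore proteins (Kif11, Kif20a, Cenpe, Cenpf, Tpx2 and Nusap1) from -0.11 to 0.20. Mki67, which encodes the proliferation marker Ki-67, stood at 142, 293 and 284 TPM in controls and at 170, 305 and 257 TPM in mutants. Within each genotype the 19-somite library was the lowest and the other 2 were close together, and the log2 fold change was 0.06 ± 0.35 (SE, 95% interval -0.75 to 0.87). Top2a, the topoisomerase that untangles chromosomes, was the most abundant G2/M member, at 286, 385 and 424 TPM in controls and 301, 389 and 456 TPM in mutants. The genotypes thus interleaved by library number. Its interval ran from -0.52 to 0.66.

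The mean level of each phase per library overlapped between genotypes. The mean log2(TPM + 1) of the G1/S members was 6.10, 5.86 and 6.01 in controls and 6.11, 5.88 and 5.93 in mutants, so libraries of the same number lay within 0.08 of each other. That of the G2/M members was 6.41, 6.48 and 6.68 in controls and 6.58, 6.70 and 6.67 in mutants. Controls 1 and 2 were the lowest libraries and control 3 lay between the mutants.

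**Figure D5:**
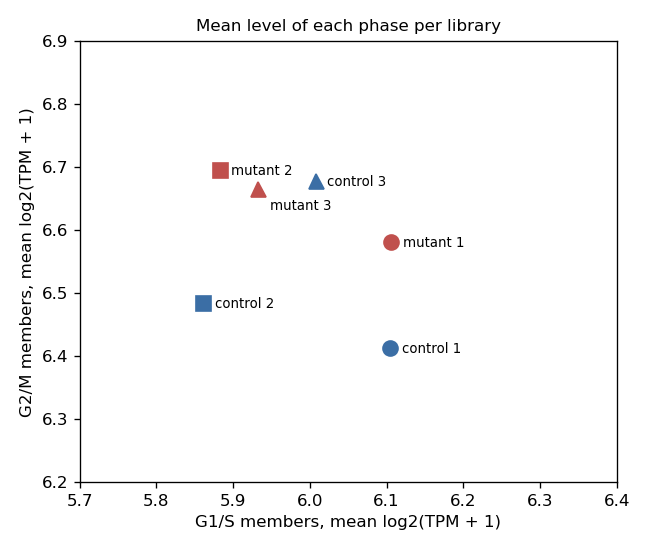
Mean log2(TPM + 1) of the 27 tested G1/S members (horizontal axis) and of the 20 G2/M members (vertical axis) for each library, with controls in blue, mutants in red and symbols for the library number. The genotypes do not separate along either axis: G1/S means run from 5.86 to 6.10 in controls and from 5.88 to 6.11 in mutants.

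Some members set the 19-somite embryos apart, whatever their genotype. Both 19-somite libraries were below the other 4 for 8 of 20 G2/M members (40%, against 20.4% of all genes), namely Ccnb1, Cenpe, Cenpf, Kif11, Mki67, Nusap1, Top2a and Tpx2. They were above the other 4 for 8 of 27 G1/S members (29.6%, against 23.1% of all genes), among them Ccne1, Cdc6, Cdt1, Mcm5 and Mcm7, a share near that of all genes. Other members went the opposite way: Aurka, Birc5 and Cdk1 of G2/M were higher in both 19-somite libraries (15%, against 23.1%) and Cdk6 and Mcm4 of G1/S were lower (7.41%, against 20.4%). These libraries, control 1 and mutant 1, also have titles with the same first part, which the other same-numbered libraries do not, so somite number and whatever that title part stands for cannot be told apart. Over the 47 members this difference was lower for longer transcripts (Spearman's rho -0.461, all from the same 6 libraries). For the genotype difference rho was -0.275. The part of transcript length in these differences was not tested.

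Cell cycle genes beyond the members were also compared. Of 50 further G1/S genes, 47 were tested, limma called 0 lower and 0 higher, 1 had an unadjusted p of at most 0.05, and the median log2 fold change was 0.10. Among them Cdkn1c, the CDK inhibitor p57, had a mean of 97.8 ± 29.2 TPM for controls and 145 ± 21.1 TPM for mutants (SD, n = 3), with overlap. Of 53 further G2/M genes, all tested, limma called 0 in either direction and 0 had an unadjusted p of at most 0.05, with a median of 0.09. Their smallest p-values were those of the condensin subunit Ncapd2 (49.1 ± 18.6 and 32.0 ± 6.43 TPM) and the checkpoint protein Bub3 (87.5 ± 12.1 and 107 ± 9.83 TPM), and both overlapped. Of 17 genes induced by p53 on growth arrest or damage, 14 were tested, limma called 0 and 0 had an unadjusted p of at most 0.05. Their median was 0.23, beside 0.11 for all genes tested, and 13 of the 14 were above 0. The sum over all 17 was 178 to 206 TPM in controls and 220 to 227 TPM in mutants, without overlap. Their mean log2(TPM + 1) did overlap, at 3.26 in control 1 and 3.15 in mutant 3. Neither the sum nor the mean was tested. The smallest p-values of this list were those of Ccng1 (32.7 ± 4.69 and 41.0 ± 4.39 TPM) and Plk3 (0.40 ± 0.36 and 1.80 ± 2.18 TPM), again with overlap.

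Markers of cell types that could carry their own cycle genes also differed between libraries. The summed TPM of 9 endothelial markers was 84.9 to 142 in controls and 169 to 266 in mutants, without overlap, and 5 of the 9 were higher without overlap, or 55.6% against 6.68% of all genes. Sox17 was the exception in direction, being lower in 3 of 3 same-numbered pairs, with overlapping groups. Those of 7 erythroid markers (3260 to 27089 and 7095 to 31271 TPM), 11 cardiomyocyte markers (311 to 859 and 334 to 1803 TPM) and 8 neural tube markers (1.42 to 9.21 and 2.68 to 52.3 TPM) overlapped. The neural tube sum of 52.3 TPM was that of mutant 2 alone. With the replicate block in limma, 6 of the 11 cardiomyocyte markers were higher at an unadjusted p of at most 0.05. That is 54.5%, against 7.94% of all genes, and 0 were called. Nkx2-5 was lower in 3 of 3 same-numbered pairs. Of the neural tube markers, Sox1, Neurog2, Olig2, Sox3 and Hes5 were at 0 in at least 1 library. The sum of 8 splanchnic mesoderm markers was 632 to 881 TPM in controls and 501 to 523 TPM in mutants, without overlap. Its members went both ways, with a median log2 fold change of -1.05: Barx1, Foxf1, Osr1, Pdgfra and Tbx5 were lower without overlap (62.5%, against 1.68% of all genes), and Vim was higher without overlap. Of these only Tbx5 was called (log2 fold change -2.78, limma adjusted p = 0.0271). The sum of 8 endoderm markers was 313 to 506 TPM in controls and 297 to 417 TPM in mutants. The part of cell type makeup in the levels of Ccnd1, Ccnd2, Ccnd3 and Myc was not tested.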

How the data were processed

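RNA from 6 single foreguts was amplified with the SMART-Seq v4 kit, which takes polyadenylated transcripts, and made into Nextera XT libraries without strand marking. The authors aligned reads to mm10 within the CSBB pipeline and deposited TPM values. Aligner, quantifier and annotation: not given in the sources used here. Columns were matched to samples by genotype and number. TPM keeps no depth, so precision rests on the spread between embryos.

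The study's methods name RUVSeq, which needs counts, so log2(TPM + 1) was modelled with limma (version 3.58.1, under R 4.3.3), with a mean-variance trend, two-sided p-values and Benjamini-Hochberg adjustment. The 14606 genes averaging 1 TPM or more entered, and calls used the limits in the study's methods. A figure legend of the study gives the stricter FDR limit of 0.05, which was an alternative here. The study reported many more differing transcripts than the 4 lower and 2 higher genes called here. The absence of a call therefore does not show equal expression. The pseudocount makes differences of low genes look smaller. The procedure was tested on simulated data. Exact permutation of 3 and 3 libraries has a smallest p of 0.1. Members, lists and tests were chosen with earlier results of these data known. Values per library are given for D and E cyclins, Myc, Mycn, CDK inhibitors, and for members called, with an unadjusted p up to 0.05, without overlap, or highest or lowest of their phase. Cdk4, Cdk6 and Mki67 were added after their values were seen. Of the other lists, those called or with the 2 smallest p-values are named. 1 gene that this rule names is not reported here. Coordinates and overlaps are from GENCODE M21 (mm10), where 16 of 48 members share exonic bases with a gene on the opposite strand. Pcna, Tyms, Ccnb1, Ccnb2 and Ccnd3 have annotated pseudogenes.

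Both groups carry the numbers 1, 2 and 3. Within-group deviations of libraries with equal numbers had correlations of 0.67, 0.37 and 0.15, each above the limit of 0.1 set for treating the samples as pairs. Control 2 with mutant 3 (0.243) and control 3 with mutant 2 (0.245) also passed this limit, and both were above pair 3. The correlations thus do not single out pair 3. The labels do not give the meaning of the numbers. The study's methods and its reporting summary both describe the controls as littermates. The summary also speaks of separate litters for the replicates, without saying whether a control and a mutant shared one. Sample titles share their first part only for control 1 and mutant 1, so pairs 2 and 3 rest on the correlations alone. Alternatives were pseudocounts of 0.1 and 5, the expression filter removed or set to 5 TPM, calls at 0.05, 3 other scalings, somite number, the replicate block, array weights, and leaving out libraries.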

Additional observations from a re-analysis of the deposited data

How the results depend on the processing

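No member was called under any alternative, and Ccnd1, Ccnd2, Ccnd3, Ccne2, Mycn, Myc, Cdk6, Cdkn1a, Mcm3 and Cdc25c kept their direction in all 17 that refitted the values. The replicate block changed no call: 0 members were called lower and 0 higher, as without it, and 6 members had an unadjusted p of at most 0.05 in limma (Ccnd1, Ccnd2, Cdk6 and Mycn lower, Ccnd3 and Myc higher) against 3. Over all genes limma called 4 lower and 2 higher, or 16 and 14 with the block.

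Median-of-ratios scaling, quantile normalization and rescaling without accession-named features moved the median of all genes from 0.11 to -0.012, -0.0046 and -0.015. In that order the G1/S median went to -0.098, -0.075 and -0.11 and the G2/M median to -0.025, 0.025 and -0.036. The further G1/S genes went to -0.036, -0.018 and -0.047 and the further G2/M genes to -0.051, -0.018 and -0.062 under the 3 scalings. Signs turned for Pcna (-0.013, -0.0084 and -0.024), Top2a (-0.074, -0.075 and -0.085) and Mki67 (-0.084, -0.088 and -0.095), and for Mki67 without both libraries numbered 1 (-0.041). The cause of the unequal moves between genes was not tested.

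Leaving out single libraries took Ccnd2 from -0.998 to -0.68, Ccnd1 from -0.41 to -0.26, Ccnd3 from 0.53 to 1.01, Myc from 0.55 to 1.30, Cdk6 from -1.15 to -0.58 and Mycn from -0.62 to -0.21. It took Ccne1 from -0.46 to 0.11, Cdkn1b from -0.094 to 0.089, Top2a from -0.10 to 0.23, Mki67 from -0.28 to 0.30 and the G1/S median from -0.083 (without control 2) to 0.10. Of 544 values of the other members, 107 changed sign, none with a call. TPM carries no depth, and its effect on precision was not estimated.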
